A study of Mus musculus with 28 samples.

Results

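A pair of gene expression libraries from HC11 cells treated with DIP, libraries 8 and 10 of 10 DIP libraries, stood apart from the other 8 libraries that carry the same labels. HC11 is an untransformed mouse mammary epithelial line, kept as a model of lactation because it can be made to differentiate by hormones. The pair made up 2 of the 28 libraries of the series, of which 10 came from HC11 cells labelled DOX, 10 from HC11 cells labelled DOX and DIP, and 8 from the mammary cancer line 4T1 labelled DOX. The pair was picked from measured values of these same counts: its cell cycle genes were low, as in the other DIP libraries, while its glucocorticoid target genes were not high. Within the HC11 libraries labelled DOX and DIP, the choice used no numerical threshold and no further label. Every difference between the pair and the other 8 is therefore a description of these libraries, given without a test.

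The labels spell out neither DOX nor DIP and name no construct, time, dose or culture, so all 10 DIP libraries are 1 group by label. The same agent DOX is labelled for every library of the series, the HC11 libraries without DIP included. In work on HC11 cells DIP commonly stands for dexamethasone, insulin and prolactin, and DOX for doxycycline, an agent used to switch inducible constructs on or off. The series title names PAPAS, a noncoding antisense RNA of the ribosomal DNA repeats, with lactogenic differentiation and breast cancer. Library numbers follow accession order inside a group and serve as names alone. No label says which libraries share a culture, so p-values measure only the spread between these libraries.

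Dexamethasone acts through the glucocorticoid receptor, a transcription factor that switches on a well known set of genes in most cell types, among them Tsc22d3, Fkbp5 and Per1. Prolactin acts through its receptor and STAT5 to switch on milk protein genes, and insulin restrains the FOXO transcription factors. MYC is a transcription factor that drives the genes with which cells build ribosomes, and it normally falls as cells leave the cycle. The integrated stress response slows protein synthesis and raises the transcription factor ATF4, whose targets include Ddit3, Trib3 and Ppp1r15a. HC11 cells growing in culture carry keratins 5 and 14, which are markers of the basal layer of the mammary gland.

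Libraries 8 and 10 resembled each other more than either resembled any other library. Over 23829 genes the Spearman correlation between libraries 8 and 10 was 0.991, that among the other 8 DIP libraries ran from 0.968 to 0.996, and that of the pair with the other 8 from 0.911 to 0.944. With the DOX libraries the pair correlated at 0.903 to 0.926 and with the 4T1 libraries at 0.875 to 0.900. CPM is the count of a gene scaled to the size of its library. Among 11080 genes averaging a log2 CPM of 3 or more, 0.975% differed at least 2-fold between libraries 8 and 10, and between 24.2% and 39.2% between 1 of the pair and 1 of the other 8. Library 1 was the nearest of the other DIP libraries to both. The pair held 134117581 and 157542827 counts, and the other HC11 libraries 135955692 to 222065843. It had 31562 to 32044 genes detected against 32140 to 33492 in the other 8. Mitochondrial genes took 2.81% to 3.16% of counts against 3.44% to 5.33% in the other 8, and the 50 most abundant genes 11.9% and 12.3% against 16.6% to 19.4%. The part of these measures in the differences below was not tested. The 55 genes typical of 4T1 cells read 0.437% and 0.285% of their 4T1 level, as a median, against 0.154% to 0.412% in the other 8 and 0.0769% to 0.4928% in the DOX libraries.

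**Figure D1:**
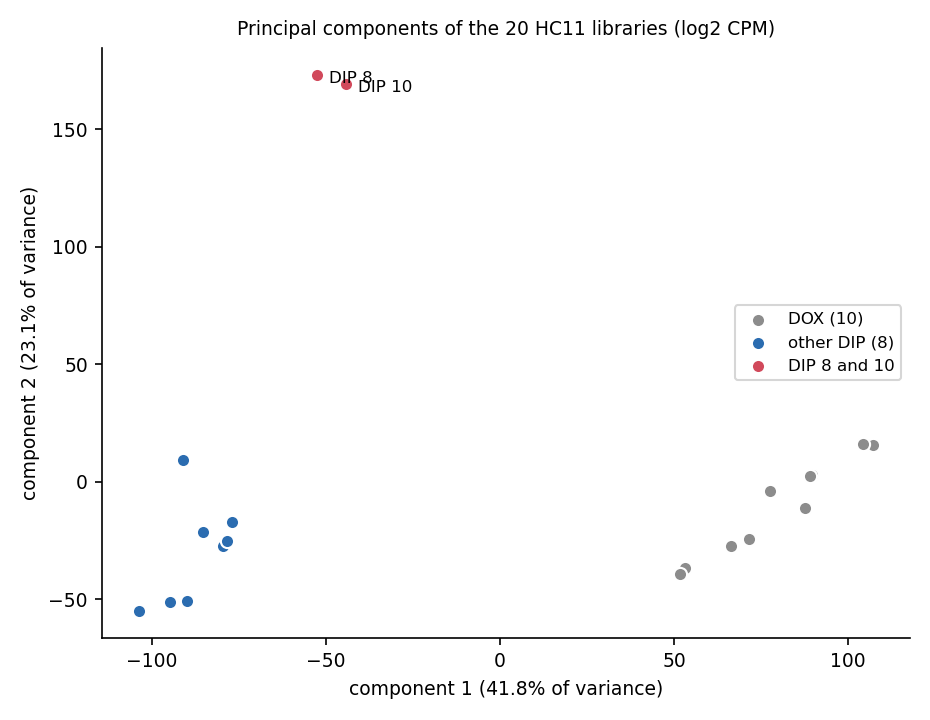
Principal components of log2 CPM over the HC11 libraries, with component 1 (41.8% of the variance) on the x axis and component 2 (23.1%) on the y axis; grey points are DOX libraries, blue points the other 8 DIP libraries and red points libraries 8 and 10. The pair lies with the DIP libraries on the side below 0 of component 1, at -52.7 and -44.4, and alone on component 2, at 173 and 169, where every other library is at or below 16.1.

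In the rest of this account, values of libraries 8 and 10 are given in that order, and values of the other 8 DIP libraries and of the 10 DOX libraries as the lowest, the median and the highest. A gene is called apart where both libraries of the pair lay beyond all of the other 8 in the same direction and the means of log2 CPM differed at least 2-fold. By that measure 2792 genes (11.7% of the 23829) stood higher in the pair and 4392 (18.4%) stood lower. Larger differences were mostly on the low side, with 377 genes at least 4-fold higher and 2103 at least 4-fold lower. To be tested, a gene needed reads in about as many libraries as a label group holds. Genes read only in the pair or only in the other 8 are therefore missing, and the directions are not on equal terms. Of the genes standing higher, 2232 also exceeded all 10 DOX libraries. Of those standing lower, 2916 lay below all 10 DOX libraries and 925 lay inside the DOX range in both libraries. The median difference over all tested genes was -0.04 on the log2 scale. Counts of list members below are to be read against these shares of 11.7% and 18.4%.

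Genes that separated the other 8 DIP libraries from the DOX libraries were divided in the pair by direction. Without use of the pair, 1431 genes (6.01%) were higher in all of the other 8 than in all 10 DOX libraries and at least 2-fold so, and 1382 (5.8%) were lower by the same measure. They are called DIP-high and DIP-low genes here. Of the 1382 DIP-low genes, 922 (66.7%) lay within or below the range of the other 8 in both libraries of the pair, and 140 were not below the DOX range. Of the 1431 DIP-high genes, 481 (33.6%) lay within or above the range of the other 8, and 645 (45.1%) were not above the DOX range. The pair showed a median of 98.3% of the log2 difference of the DIP-low genes and 42.2% of that of the DIP-high genes. Library 8 was at 43.4% and library 10 at 39.5% for the DIP-high genes, while each of the other 8 set against its 7 fellows was between 93.0% and 113%. Those fellows were used to choose the genes and the pair was not, so the percentages are not on equal terms. The pair was also picked for low cell cycle genes and for glucocorticoid targets that were not high. All 30 listed cell cycle genes were DIP-low and 16 listed glucocorticoid targets were DIP-high. The division by direction is therefore not independent of that choice and only describes the pair.

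**Figure D2:**
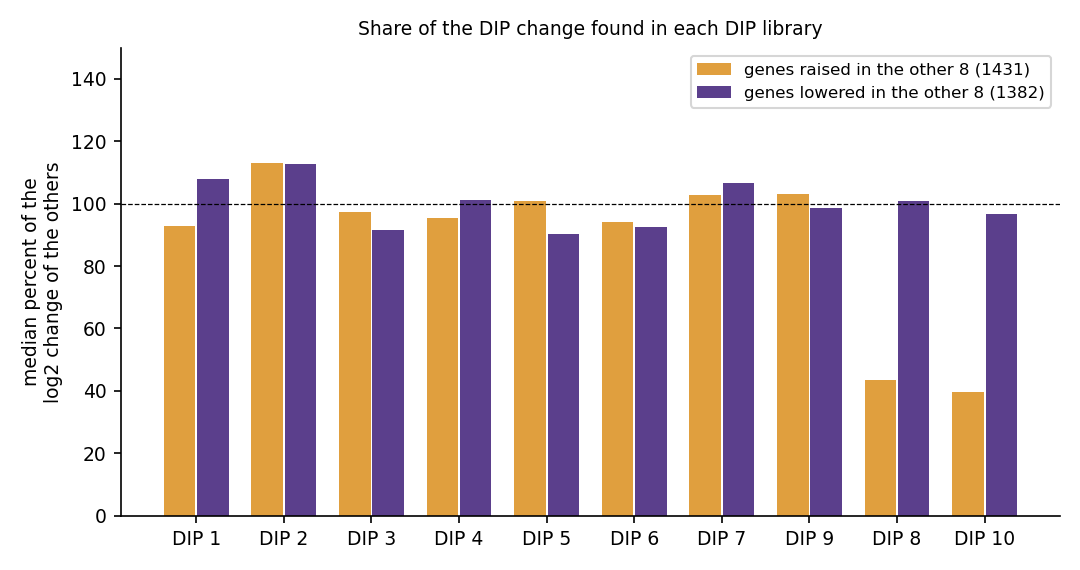
Median percent of the log2 difference between DIP and DOX libraries shown by each DIP library (y axis), for the 1431 DIP-high and the 1382 DIP-low genes. Libraries 8 and 10 are near 100% for the DIP-low genes (101% and 96.6%) and at 43.4% and 39.5% for the DIP-high genes. These genes include cell cycle genes and glucocorticoid targets, on which the pair was picked.

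The comparison by labels, all 10 DIP against all 10 DOX libraries with edgeR's quasi-likelihood test and Benjamini-Hochberg adjustment over all genes, called 5838 genes higher (24.5%) and 4999 lower (21.0%) at an adjusted p of 0.05. Without libraries 8 and 10 it called 6599 higher and 6204 lower. Calls shared by both fits numbered 5251 higher, which is 89.9% of the first list and 79.6% of the second, and 4769 lower, which is 95.4% and 76.9%. Of the 1348 higher calls gained without the pair, 786 stood lower in it, and of the 1435 lower calls gained, 680 stood higher in it. The pair was picked for standing apart, so its removal narrows the spread by construction.

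**Figure D3:**
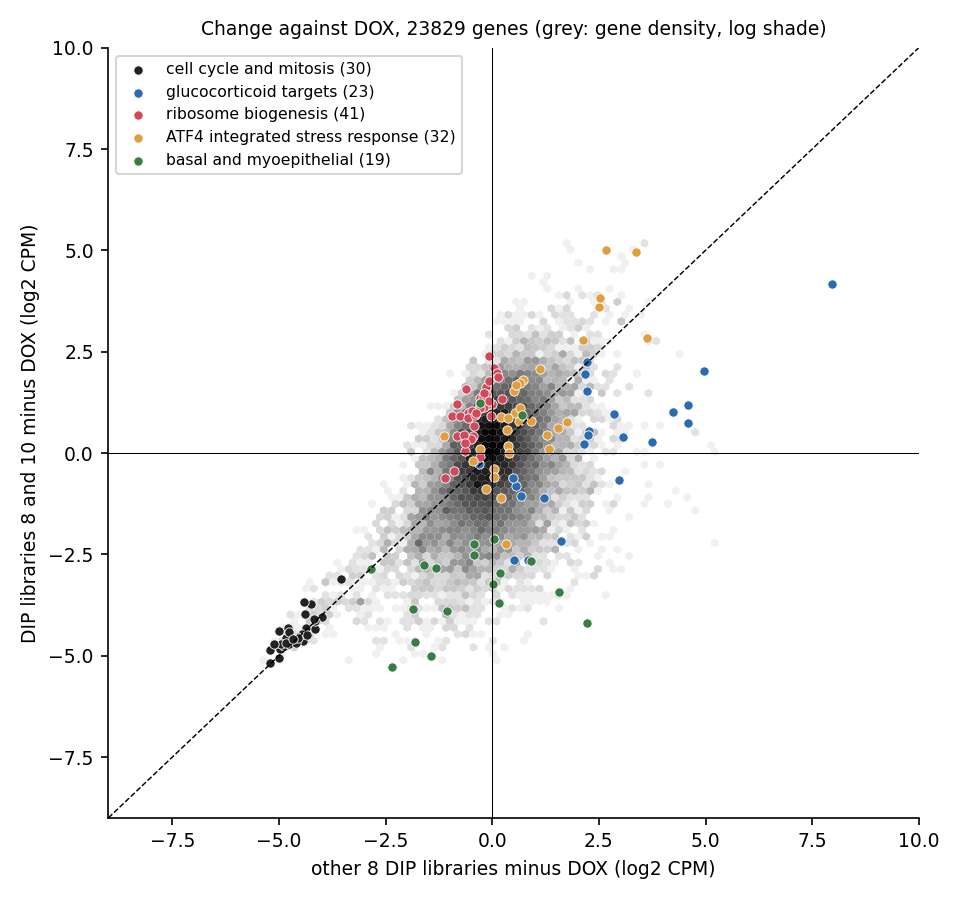
Difference from the DOX libraries in log2 CPM for the other 8 DIP libraries (x axis) and for libraries 8 and 10 (y axis); grey hexagons count all tested genes, coloured points are members of 5 gene lists and the dashed line marks equal differences. Cell cycle genes lie near the line, glucocorticoid targets lie below it (median -2.32 between pair and other 8) and ribosome biogenesis genes above it (median 1.41).

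Cell cycle genes were low in the pair, as in the other DIP libraries, which is one of the values that chose it. Mki67, a marker of cycling cells, read 9.15 and 10.7 CPM in the pair, 3.51, 7.76 and 29.1 CPM in the other 8 and 92.3, 315 and 414 CPM in the DOX libraries. All DIP libraries lay below all DOX libraries, and the pair lay inside the range of the other 8. Of 30 listed genes of the cell cycle and mitosis, 0 stood apart from the other 8 in either direction, and all 30 were DIP-low genes at which the pair lay within or below the other 8. All 30 fell with DIP by edgeR both with and without the pair. Their mean log2 CPM was 2.27 and 2.49 in the pair, 1.06 to 3.54 in the other 8 and 6.33 to 7.12 in the DOX libraries. Top2a, a topoisomerase of dividing cells, read 19.5 and 23.5 CPM and Ccnb1, the mitotic cyclin B1, 4.63 and 4.78 CPM, both inside the range of the other 8.

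Genes of DNA replication were less low. Of 30 listed, 6 stood higher in the pair than in the other 8 and 1 stood lower, with a median difference of 0.62 on the log2 scale. Mcm5, a subunit of the replicative helicase, read 74.2 and 88.1 CPM against 4.74, 13.7 and 26.9 CPM in the other 8 and 138, 275 and 390.5 CPM in the DOX libraries. The pair thus lay between the other 8 and the DOX range. Ung, a uracil DNA glycosylase, read 54.7 and 59.4 CPM against 7.23, 10.6 and 13.4 CPM in the other 8 and 19.4, 44.1 and 56 CPM in the DOX libraries, so that library 10 exceeded every DOX library. Cdt1, which licenses replication origins, read 31.7 and 34.6 CPM, also above all of the other 8 (7.38 to 16.9 CPM) and below all DOX libraries (50.7 to 94.1 CPM). By edgeR with all 10 DIP libraries, all 30 replication genes fell with DIP.

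The inhibitors of cyclin-dependent kinases p21 and p27 were lower in the pair than in every other DIP library. Cdkn1a, which encodes p21, read 23.9 and 27.6 CPM against 57.7, 89.7 and 104 CPM in the other 8 and 28.3, 62.6 and 84.5 CPM in the DOX libraries. Cdkn1b, which encodes p27, read 44.1 and 42.9 CPM against 78.9, 111 and 130.2 CPM and 73.9, 90.2 and 135 CPM. For both genes the pair lay below all of the other HC11 libraries. E2f2, a transcription factor of the G1 to S transition, read 3.55 and 5.8 CPM against 6.13 to 17.3 CPM in the other 8 and 57 to 96.3 CPM in the DOX libraries. In the list of 24 G1 cyclins and inhibitors, 1 member stood higher and 5 stood lower.

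Glucocorticoid targets, the other values that chose the pair, were lower than in the other 8 for 17 of 23 members measured and higher for 0, with a median difference of -2.32. Tsc22d3, the glucocorticoid-induced leucine zipper, read 36.7 and 50.9 CPM in the pair, 251, 429 and 466 CPM in the other 8 and 13.7, 23.5 and 30.05 CPM in the DOX libraries. It was 9.35-fold lower than in the other 8, yet above all 10 DOX libraries. Fkbp5, a chaperone that dampens the receptor, read 23.7 and 24.9 CPM against 204, 279.8 and 581 CPM and 29.2, 36.1 and 51.7 CPM, so that the pair lay below every other HC11 library. Cebpd, a transcription factor of early differentiation, read 13.8 and 19.7 CPM against 154, 258 and 296 CPM and 45.5, 74.8 and 96.2 CPM, again below every DOX library. Sgk1, a kinase of ion transport, read 15.8 and 20.3 CPM against 112, 166 and 264 CPM and 59.2, 121 and 201 CPM. Ddit4, an inhibitor of mTOR signalling, read 12.3 and 14.9 CPM against 97, 161 and 211 CPM and 43.6, 109.9 and 135 CPM. For Fkbp5, Cebpd, Sgk1 and Ddit4 the pair was thus lower than both sets of libraries.

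Per1, a clock gene and direct glucocorticoid target, differed from that pattern. It read 119 and 124 CPM in the pair, 82.9, 147 and 185 CPM in the other 8 and 23.9, 29.6 and 47.4 CPM in the DOX libraries. The pair lay inside the range of the other 8 and above all DOX libraries, and the edgeR fit gave a DIP effect of 2.12 ± 0.16 on the log2 scale (± SE, adjusted p = 5.83e-10, n = 10 and 10). Zbtb16, a zinc finger gene that glucocorticoids induce strongly, read 0.383 and 0.179 CPM against 2.55, 3.32 and 6.75 CPM in the other 8 and at most 0.0143 CPM in the DOX libraries. Its level in the pair was low but above all DOX libraries. Of 16 glucocorticoid targets that were DIP-high, 8 were not above the DOX range in the pair and 1, Per1, lay within the range of the other 8. By edgeR, 17 of 23 rose with DIP and 0 fell with all 10 libraries, and 19 rose without the pair. Nr3c1, which encodes the receptor itself, read 46.1 and 34.8 CPM against 43.8, 54.8 and 60.7 CPM and 31.6, 67.1 and 85.7 CPM. Its transcript was present in the pair, but library 10 lay below all of the other 8. Among DOX libraries only library 5, at 31.6 CPM, read lower than the pair, and the next lowest read 49.1 CPM.

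**Figure D4:**
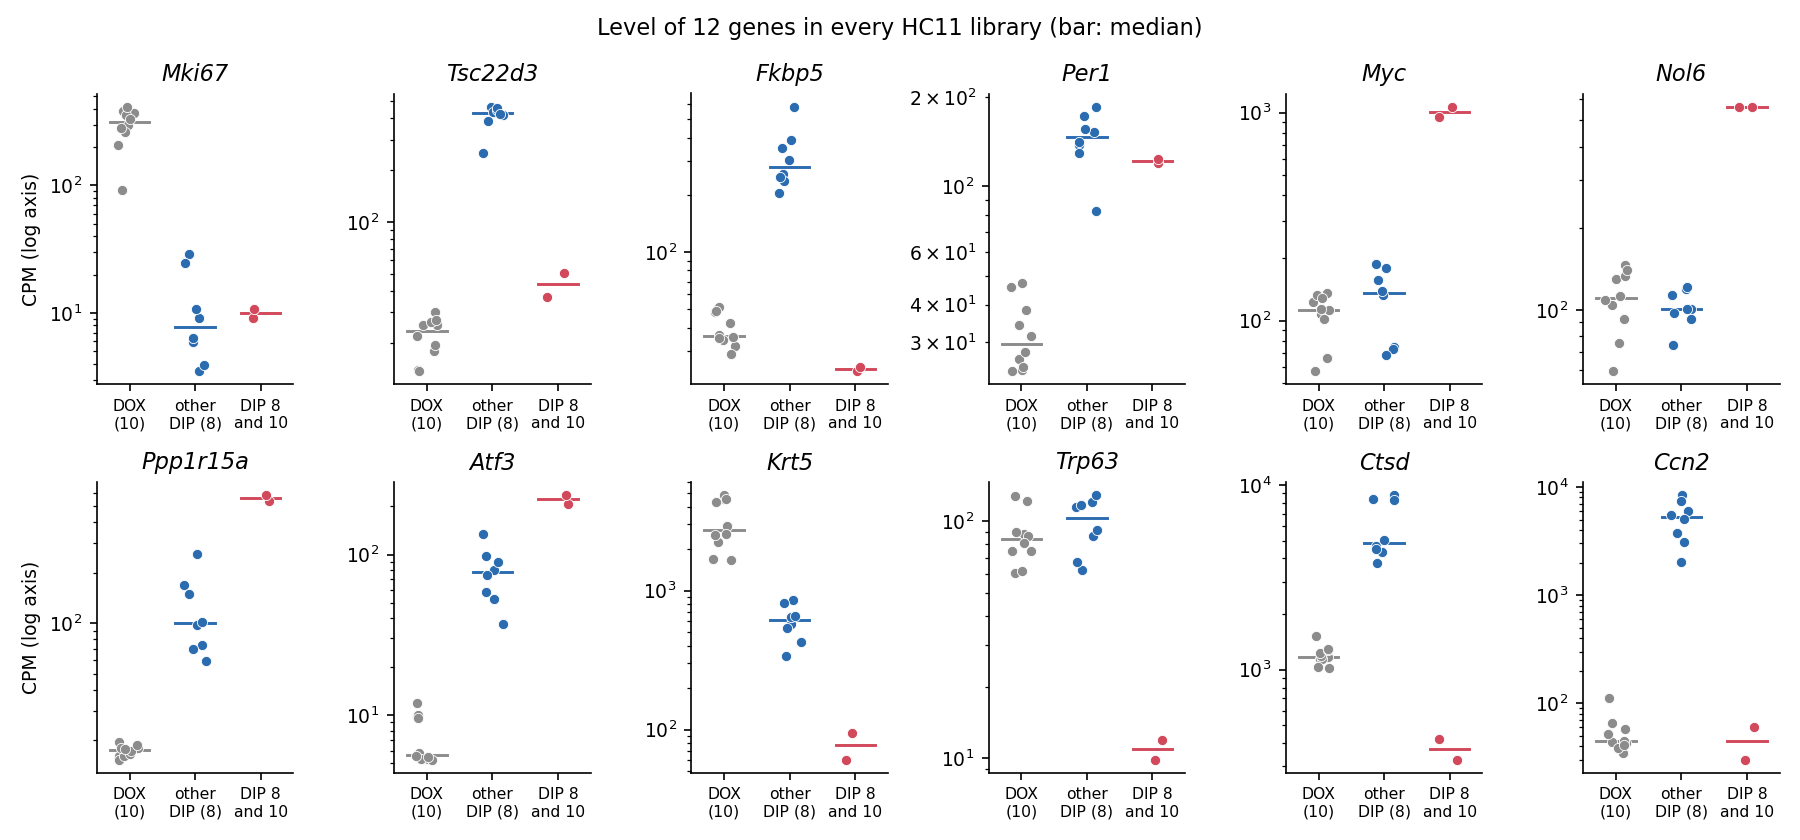
CPM of 12 genes in each HC11 library on log axes, with grey points for 10 DOX libraries, blue points for the other 8 DIP libraries, red points for libraries 8 and 10 and a bar at each median. Red points sit with blue for Mki67 and Per1, above all others for Myc, Nol6, Ppp1r15a and Atf3, and below all others for Krt5, Trp63, Ctsd and Fkbp5.

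Genes of prolactin signalling were low as well. Of 17 measured, 8 stood lower than in the other 8 and 0 stood higher, with a median difference of -1.11. Stat5a, the main transcription factor of the prolactin response, read 8.77 and 7.86 CPM against 23, 49.5 and 79.2 CPM and 11.1, 17 and 37.6 CPM, below every other HC11 library. Wnt4, a signal of ductal side branching, read 1.2 and 1.33 CPM against 9.77, 16.2 and 22.5 CPM and 11.1, 14.8 and 31.8 CPM, also below every other. Bcl6, a repressor of STAT5 targets, read 22.5 and 22.6 CPM against 46.6 to 152 CPM in the other 8, inside the DOX range of 12.2 to 39.95 CPM. Prlr, the prolactin receptor, was low in all HC11 libraries, at 0.0888 and 0.0128 CPM against 0.183, 0.246 and 0.621 CPM and 0.0118, 0.275 and 0.872 CPM, so that the pair lay below all of the other 8 and inside the DOX range. Its difference from the other 8 was -1.49 on the log2 scale without library 10 and -3.51 without library 8.

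Of 16 listed milk genes only 8 were tested, and of those 6 stood lower in the pair and 0 stood higher. Csn2, the milk protein beta-casein, had 0 counts in both libraries of the pair and 20 counts over 4 of the other 8, and 0 in the DOX libraries. Each 0 allows up to 0.0224 CPM in library 8 and 0.0190 CPM in library 10, at 3 counts of the total. Untested genes also went the other way. Cel, a lipase secreted in milk, had 72 and 41 counts in the pair, 56 over all of the other 8 together and 52 over the 10 DOX libraries. Wap, whey acidic protein, had 9 and 6 counts in the pair, 26 over the other 8 and 19 over the DOX libraries, so that its counts per library were also higher in the pair. Wfdc18, a secreted protease inhibitor of the same domain family as Wap, was well measured, at 3.03 and 5.89 CPM against 272, 363 and 739 CPM in the other 8 and 8.26, 82.2 and 136 CPM in the DOX libraries. The pair lay below all other HC11 libraries. Plin2, which coats lipid droplets, read 23.7 and 28.4 CPM against 63.9 to 172 CPM and 51.7 to 86.3 CPM, lower than both sets.

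Targets of the FOXO factors and genes of the insulin response stood lower for 14 of 20 members and higher for 0, with a median difference of -2.01, and 9 of the 20 were below all other HC11 libraries. Igfbp5, a secreted binder of insulin-like growth factors, read 41.4 and 93.8 CPM against 1457, 2905 and 13486 CPM in the other 8 and 1536, 2235 and 4298 CPM in the DOX libraries, 56.2-fold below the other 8, and the difference was -5.22 on the log2 scale without library 8 and -6.40 without library 10. Ccng2, a cyclin of resting cells, read 4.03 and 4.58 CPM against 72.7, 96.6 and 166 CPM and 16.5, 32.2 and 40.2 CPM. Trib2, a pseudokinase, read 1.69 and 2.79 CPM against 47.8, 76.2 and 97.2 CPM and 13.7, 23.6 and 53.8 CPM. These 3 genes were below all other HC11 libraries in the pair. Pdk4, a kinase that shuts down pyruvate oxidation, was not kept by the filter, which needs reads in about 10 libraries, and had 5 and 0 counts in the pair, 2317 over the other 8 and 44 over the DOX libraries.

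Myc had the largest higher difference among named genes averaging a log2 CPM of 3 or more over the DIP libraries, and genes that build ribosomes were high with it. Myc read 952 and 1067 CPM in the pair, 68.4, 135 and 187 CPM in the other 8 and 57.2, 113 and 135 CPM in the DOX libraries, 8.61-fold above the other 8 and 9.69-fold above the DOX libraries. Neither set of libraries overlapped the pair. Of 41 listed genes of ribosome biogenesis, 33 stood higher in the pair and 0 stood lower, with a median difference of 1.41, and 32 were above all other HC11 libraries. Nol6, a protein of the small-subunit precursor, read 561 and 558 CPM against 74.5, 101 and 121 CPM and 59.5, 111 and 146 CPM. Nolc1, a nucleolar phosphoprotein, read 597 and 601 CPM against 91.6, 136 and 181 CPM and 109, 211 and 304 CPM. Nop14, needed for processing of 18S ribosomal RNA, read 272 and 284 CPM against 42.8, 69.8 and 127 CPM and 42.4, 68.7 and 94.8 CPM. In all 3 genes the pair exceeded every other HC11 library.

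Polr1a, the largest subunit of RNA polymerase I, which transcribes ribosomal DNA, read 212 and 170.1 CPM against 59.9, 76.2 and 85.4 CPM in the other 8 and 55.5, 106 and 125 CPM in the DOX libraries, and the pair was above them all. Ncl, nucleolin, read 1169 and 1043 CPM against 435, 690.0 and 1441 CPM and 391, 1289 and 1772 CPM, and overlapped both sets. The calls of this list depended on the pair: by edgeR 0 members rose and 2 fell with DIP over all 10 libraries, and 0 rose and 16 fell without libraries 8 and 10. For Nolc1 the edgeR fit gave 0.10 ± 0.35 on the log2 scale with the pair (± SE, adjusted p = 0.847) and -0.67 ± 0.20 without it (adjusted p = 0.00766).

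The cytosolic ribosomal protein genes did not stand with the biogenesis genes, with 0 of 39 higher and 1 lower and a median difference of 0.03, which fell below 0 without library 2 or without library 10. Rps20, the member that stood lower, read 228 and 346 CPM against 487 to 764 CPM in the other 8. The metabolic targets of MYC lay between, with 6 of 20 higher and 0 lower, and a median of 0.63. Umps, an enzyme of pyrimidine synthesis, read 111 and 115 CPM against 23.6, 34.6 and 47.7 CPM and 43.5, 88.5 and 127 CPM, inside the DOX range. Nme1, a nucleoside diphosphate kinase, read 348 and 547 CPM against 79, 130.2 and 223 CPM and 107, 222 and 323 CPM, and Eif4e, the cap-binding initiation factor, 291 and 323 CPM against 58.6, 96.3 and 170.2 CPM and 66.5, 123 and 154 CPM, both above every other HC11 library. In the MYC network, Max, the partner of MYC, read 75.2 and 85.4 CPM against 45.9, 55 and 63.6 CPM, 1.49-fold higher. Mga, which competes for Max, read 194 and 129.7 CPM against 32.9, 52.1 and 88.9 CPM, and Mycl, a relative of Myc, 3.25 and 3.42 CPM against 10.1, 19.9 and 35.3 CPM. Mga stood higher and Mycl lower than in all of the other 8.

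Of 7 transcripts of the integrated stress response that were DIP-high, 5 lay within or above the range of the other 8 in the pair, and 8 of the 32 listed stood higher. Ppp1r15a encodes GADD34, which guides a phosphatase to the initiation factor eIF2 alpha, and read 539 and 580.2 CPM in the pair, 59.4, 99.7 and 259 CPM in the other 8 and 15.3, 17.5 and 19.4 CPM in the DOX libraries. It was 5.13-fold above the other 8 and 32.4-fold above the DOX libraries. Atf3, a transcription factor of the same response, read 206 and 234 CPM against 36.8, 77.8 and 133 CPM and 5.28, 5.68 and 11.8 CPM. Trib3, a pseudokinase that restrains it, read 456 and 545 CPM against 88.5, 208 and 389 CPM and 14.2, 30.1 and 79.3 CPM. In these 3 genes the pair lay above all other HC11 libraries, and the other 8 above all DOX libraries.

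The start regions of these 3 genes are shown, and their transcripts were high in both sets of DIP libraries and highest in the pair. The same held for Ddit3. Its window and that of Atf4 were also searched, are not shown and hold neither of the elements marked below. Windows run from 250 bases before to 50 bases after the annotated start, in RefSeq on GRCm38.p6, all on the minus strand: chr7:45526219-45526518 for Ppp1r15a, chr1:191183284-191183583 for Atf3 and chr2:152344011-152344310 for Trib3. Capitals mark the cyclic AMP response element TGACGTCA in Ppp1r15a, which begins 12 bases before the start, and the ATF4 and CHOP composite element TGATGNAAN, read on the opposite strand, in Atf3 and Trib3.
Ppp1r15a: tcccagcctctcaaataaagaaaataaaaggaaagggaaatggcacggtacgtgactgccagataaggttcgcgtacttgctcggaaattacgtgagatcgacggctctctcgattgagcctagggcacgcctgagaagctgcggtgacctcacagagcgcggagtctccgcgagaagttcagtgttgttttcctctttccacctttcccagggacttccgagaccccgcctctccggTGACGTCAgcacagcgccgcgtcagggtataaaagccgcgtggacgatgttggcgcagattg
Atf3: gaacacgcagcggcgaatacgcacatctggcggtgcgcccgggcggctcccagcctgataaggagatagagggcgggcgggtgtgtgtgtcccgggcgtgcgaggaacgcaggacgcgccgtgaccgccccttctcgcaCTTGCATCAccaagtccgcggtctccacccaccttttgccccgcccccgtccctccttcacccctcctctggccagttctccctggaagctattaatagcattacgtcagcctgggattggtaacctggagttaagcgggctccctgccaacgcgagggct
Trib3: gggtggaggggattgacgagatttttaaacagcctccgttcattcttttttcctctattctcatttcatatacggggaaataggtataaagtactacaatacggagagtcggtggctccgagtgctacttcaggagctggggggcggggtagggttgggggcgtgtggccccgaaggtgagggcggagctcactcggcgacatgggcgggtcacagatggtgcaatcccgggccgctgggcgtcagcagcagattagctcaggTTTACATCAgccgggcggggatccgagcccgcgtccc

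Motifs were searched on both strands as exact letters, namely the composite element, the response element above, the E-box CACGTG, the AP-1 site TGANTCA, and the glucocorticoid response element and the CArG box by name. None of these motifs contains another, though matches can share a few bases. The composite element was present in 10 of 31 windows of the stress response list (32.3%) and in 2.55% of all 15470 windows of tested genes. It was present in 3.77% of windows of genes that stood higher in the pair and in 2.55% of those that stood lower. The E-box, the site MYC and MAX bind, was present in 11.6% of windows of genes standing higher, 7.58% of those standing lower and 9.19% of all. The glucocorticoid response element was found in 3 of 27 windows of the glucocorticoid list and in 0.394% of all. A match describes letters in a window and was not tested as a site.

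Other members of the stress response differed in both directions. Atf4 itself read 740.2 and 926 CPM against 294, 379.7 and 621 CPM and 201, 235 and 313 CPM. Ddit3, the pro-apoptotic factor CHOP, read 159.7 and 154 CPM against 35.3, 68.3 and 142 CPM and 8.62, 10.4 and 23.1 CPM. For both the pair exceeded every other HC11 library. Pck2, a mitochondrial enzyme and ATF4 target, was opposite at 16.1 and 19.9 CPM against 78, 104 and 141 CPM and 59.1, 64.2 and 187 CPM, below all. Over the 32 members 3 stood lower than in the other 8, and the median difference was 0.33. The mean log2 CPM of the list was 6.3078 and 6.4726 in the pair, inside the range of the other 8, 5.6044 to 6.5295. As a whole the list thus did not set the pair apart. Library 1 was the highest of the other 8 for Ppp1r15a, Atf3, Trib3, Atf4 and Ddit3. It came near the pair for Ddit3, at 141.77 CPM, and less so for Trib3, at 389.12 CPM. By edgeR 19 of 32 rose with DIP and 1 fell, and without the pair 18 rose and 2 fell. For Atf3 the edgeR fit gave 3.85 ± 0.33 on the log2 scale with the pair (± SE, adjusted p = 3.57e-09) and 3.40 ± 0.24 without it (adjusted p = 7.93e-10).

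Several chaperones of the endoplasmic reticulum were high too, and several of the cytosol were low. In the unfolded protein response, 5 of 21 genes stood higher and 0 lower. Hspa5, the chaperone BiP, read 2235 and 2099.6 CPM against 539.8, 1060.2 and 1294 CPM and 843, 941 and 1104 CPM, Hyou1, its exchange factor, 622 and 607 CPM against 186 to 316 CPM and 257 to 367 CPM, and Dnajb9, its partner, 76.9 and 74.8 CPM against 26.3 to 37.5 CPM and 7.65 to 13.2 CPM. All 3 were above every other HC11 library. In the heat shock list 0 of 12 stood higher and 4 lower. Its median difference was -0.04, the same as over all genes, and 2 of the 12 lay above and 4 below all other HC11 libraries. Hspa1b and Hspa1a, the near-identical inducible HSP70 genes whose reads counting could split, read 37 and 37.5 CPM and 24.7 and 24 CPM against 210.1 to 342 CPM and 137 to 220.4 CPM in the other 8. Cryab, a small heat shock protein, read 67.3 and 94.5 CPM against 179.8 to 355 CPM.

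Basal keratins and their regulator were lower in the pair than in every other HC11 library. Krt5 read 60.9 and 94.4 CPM in the pair, 337, 611 and 856 CPM in the other 8 and 1648, 2744 and 4848 CPM in the DOX libraries. By edgeR its level fell with DIP in the comparison by labels (adjusted p = 7.81e-06). In the pair it was 7.66-fold below the other 8 and 39-fold below the DOX libraries. Krt14, its keratin partner, read 66.4 and 90.9 CPM against 439.6, 537 and 768 CPM and 1155, 1877 and 2840.3 CPM. Trp63, the transcription factor p63 that maintains basal cells, read 9.87 and 12 CPM against 62.2, 103 and 129 CPM and 60.5, 84 and 128 CPM. The other 8 overlapped the DOX libraries for Trp63, and the edgeR fit by labels gave -0.10 ± 0.35 on the log2 scale (± SE, adjusted p = 0.849). Of 19 basal and myoepithelial genes, 15 stood lower and 1 higher, with a median of -2.84, and 15 lay below all other HC11 libraries.

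Further basal and myoepithelial genes ranged down to Krt15, a keratin of basal cells, at 1.33 and 2.73 CPM against 68, 157 and 426 CPM and 25.7, 36.9 and 51.2 CPM. Mylk, the myosin kinase of contractile cells, read 0.506 and 0.301 CPM against 5.89 to 21.5 CPM, and Mme, the surface peptidase CD10, 24.9 and 30.1 CPM against 278 to 586 CPM. All were below all other HC11 libraries. In bulk RNA, fewer cells of a type and less RNA per cell cannot be told apart.

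Luminal genes were mostly lower too. Of 16 measured, 10 stood lower and 1 higher, with a median of -1.79. Krt8, a keratin of luminal cells, read 22.9 and 28.1 CPM against 81.5, 159 and 223 CPM and 114, 145 and 180.2 CPM, below all. Krt18, its partner, read 14.6 and 17.1 CPM against 23.9, 26.8 and 86.1 CPM, inside the DOX range of 7.25 to 28.9 CPM. Ehf, an ETS factor of secretory epithelium, read 3.15 and 3.92 CPM against 54.4, 132 and 203 CPM in the other 8 and 2.73, 5.46 and 12.2 CPM in the DOX libraries, a DIP-high gene that lay in the DOX range in the pair. Ly6d, a surface antigen, read 2.16 and 2.8 CPM against 23.3 to 56.1 CPM.

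Epithelial adhesion was divided between genes. Cdh1, E-cadherin, read 219 and 231 CPM against 206, 236 and 272 CPM and 287, 344 and 422 CPM, so that the pair lay with the other 8 and below the DOX libraries. Epcam, another surface marker of epithelium, read 77.2 and 95.8 CPM against 179.8, 217 and 328 CPM and 140.5, 162 and 289 CPM, lower than all but well above 0. Both of these epithelial genes were thus present in the pair. Of 26 junction genes, 11 stood lower and 2 higher, with a median of -0.19. Pkp1 and Dsg3, parts of desmosomes, read 17.8 and 21.6 CPM and 24.6 and 22.9 CPM against 99.7 to 178 CPM and 119.5 to 182 CPM in the other 8. Ovol1, a transcription factor that keeps cells epithelial, was opposite at 15.7 and 18.3 CPM against 3.79, 4.67 and 6.31 CPM and 7.04, 9.84 and 13.3 CPM, above all. Grhl3, a barrier factor of surface epithelia whose name was chosen after its values were seen, read 25.7 and 28.8 CPM against 0.798, 1.8 and 2.62 CPM and 2.97, 4.65 and 9.82 CPM, also above all.

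Matrix genes were far lower. Of 27 mesenchymal and matrix genes 12 stood lower and 0 higher, with a median of -2.01. Sparc, a matrix glycoprotein, read 85.2 and 152 CPM against 1294, 6533 and 10361 CPM and 354, 664 and 938 CPM, and Postn, periostin, 37.8 and 50.5 CPM against 1263, 2241 and 2767 CPM and 190.1, 696 and 987 CPM, both below all other HC11 libraries. Spp1, the secreted protein osteopontin, read 539 and 801 CPM against 9065, 13195 and 23388 CPM in the other 8 and 268, 488 and 1263 CPM in the DOX libraries, within the DOX range. Vim, vimentin, read 7.48 and 6.52 CPM and overlapped the other 8, at 5.42 to 148 CPM. Ccn2, a matrix protein and target of YAP, had the widest gap of the YAP list, at 30.1 and 59.6 CPM against 2013, 5283 and 8389.8 CPM and 34.9, 44.2 and 111 CPM, 111-fold below the other 8. Of 10 YAP targets 4 stood lower and 0 higher, among them F3, tissue factor, at 17.6 and 21.2 CPM against 68 to 287 CPM, and Axl, a receptor kinase, at 14.7 and 14.7 CPM against 24.8 to 124 CPM.

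Markers of other cell types were given by the sum of CPM over each list. Fibroblast markers summed to 22.4 and 23.5 CPM in the pair, 68.7 to 296 CPM in the other 8 and 55.3 to 353 CPM in the DOX libraries, with 3 of 7 tested lower, among them Dcn (1.37 and 1.81 CPM against 25.6 to 220.1 CPM) and Pdgfra (0.765 and 1.04 CPM against 7.54 to 24.4 CPM), and Dpt at 0 in both libraries of the pair. Immune markers summed to 14.7 and 13.1 CPM against 3.39 to 8.73 CPM in the other 8, with 1 of 3 tested higher. That gene was Cd68, a lysosomal protein of macrophages and other cells, at 13.3 and 11.5 CPM against 2.82 to 8.33 CPM, while Cd3e and Tyrobp were at 0 in both. Endothelial markers summed to 1.37 and 1.02 CPM against 0.564 to 2.90 CPM, with Cldn5 at 0 in both. Adipocyte markers summed to 0.294 and 0.391 CPM against 5.57 to 136 CPM, with Lep at 0 in both. Their part in the matrix and other differences was not tested.

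Growth factor, inflammatory and damage responses were not of 1 direction, and the shares of immediate early, interferon and cholesterol genes that stood lower were near the 18.4% of all genes. Jun, a subunit of AP-1, read 445 and 437 CPM against 97.9, 127 and 178 CPM and 49.5, 59.2 and 75.7 CPM, above all. Fos, its partner, read 1.93 and 2.13 CPM against 9.78, 13 and 18.6 CPM and 1.94, 5.76 and 7.29 CPM, below all of the other 8. Of 31 immediate early genes 5 stood higher and 7 lower, Btg2, an antiproliferative gene, among the latter at 19.6 and 21.3 CPM against 98 to 201 CPM. Feedback genes of the ERK pathway were lower for 6 of 17 and higher for 1, with Phlda1 at 3.74 and 4.69 CPM against 48, 75.9 and 124 CPM and 30.9, 35.7 and 41 CPM. Egfr, the receptor of epidermal growth factor, which HC11 cells need to grow, read 12 and 15.1 CPM against 35.1, 69.9 and 94.1 CPM and 54.8, 62.3 and 88.4 CPM, below all. Etv5, an ETS factor of the same list, read 1.99 and 2.56 CPM against 6.81 to 14.7 CPM.

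Among NF-kappaB targets 1 of 27 stood higher and 7 lower. Those lower included Cxcl1, a chemokine, at 1.54 and 1.9 CPM against 6.9 to 27.9 CPM. The inhibitor Nfkbie read 1.71 and 1.74 CPM against 4.9 to 12.3 CPM, and Nfkbiz 10.2 and 10.3 CPM against 36.9 to 51.4 CPM. Of 24 p53 targets 2 stood higher and 8 lower, with Perp, a desmosome protein, at 128 and 179 CPM against 878, 1514 and 1675 CPM and 258, 399 and 604 CPM, and Sesn1, a stress sensor that FOXO also drives, at 5.31 and 6.33 CPM against 33.4 to 103 CPM. Interferon genes stood higher for 4 of 28 and lower for 6, the latter including Ifit1, Ifit2 and Ifit3, antiviral proteins, which were 4.68-fold, 5.04-fold and 8.21-fold below the other 8. Genes of the BCL2 family were higher for 3 of 16 and lower for 5. Bcl2l1, the survival protein BCL-XL, read 20.7 and 28.1 CPM against 130.2, 167 and 265 CPM and 58.5, 67.9 and 77.7 CPM. The death promoters Bmf and Bbc3 differed, Bmf at 1.54 and 1.4 CPM against 13.2 to 54.5 CPM and Bbc3 at 30.8 and 34 CPM against 10.8 to 16 CPM. Bcl2l1 and Bmf lay below and Bbc3 above all other HC11 libraries.

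Genes of fatty acid synthesis and of glycolysis stood lower in larger shares than all genes, and genes of cholesterol synthesis did not. Srebf1, the transcription factor of fatty acid synthesis, read 101 and 101 CPM against 718, 1239.6 and 1795 CPM and 239.8, 318 and 498 CPM, and Scd1, a fatty acid desaturase, 77.8 and 80.6 CPM against 183 to 627 CPM, both below all other HC11 libraries. Lpin1, an enzyme of triglyceride synthesis, read 8.86 and 6.78 CPM against 13.9 to 80.6 CPM, inside the DOX range. Of 19 genes of fatty acid synthesis 7 stood lower and 2 higher. Of 22 genes of cholesterol synthesis 3 stood lower and 0 higher, a share not above the 18.4% of all genes, and the list's median difference was 0.13. Those lower included Dhcr7, the last enzyme of the pathway, 2.12-fold, and Ebp, a sterol isomerase, 2.02-fold. Of 21 genes of glycolysis and hypoxia 9 stood lower and 0 higher, led by the phosphofructokinases Pfkp and Pfkl, 4.48-fold and 4.22-fold, and Car9, a carbonic anhydrase induced by hypoxia, 4.27-fold.

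Genes of the NRF2 antioxidant pathway stood lower for 7 of 16 and higher for 0. Nqo1, a quinone reductase, read 3.87 and 4.92 CPM against 24.3, 66.8 and 102 CPM and 47.6, 117 and 136 CPM, Cat, catalase, 23.5 and 27.2 CPM against 175, 222 and 343 CPM and 120.1, 135 and 185 CPM, and G6pdx, which makes NADPH, 24.1 and 25.5 CPM against 88.1 to 139 CPM. For all 3 the pair was below all other HC11 libraries. Ctsd, the lysosomal protease cathepsin D, read 326 and 422 CPM against 3781, 4840.2 and 8799.5 CPM and 1019.6, 1177 and 1521 CPM, below all. Of 20 genes of autophagy and lysosome 5 stood lower and 0 higher, with Wipi1, which acts in autophagosome formation, 3.39-fold lower. Mitochondrially encoded genes had a median difference of -0.55 with 0 of 13 apart.

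Clock genes and nuclear RNAs also differed by gene. Of 18 clock genes 5 stood higher and 5 lower. Nr1d1, the repressor REV-ERB alpha, read 214 and 296 CPM against 30.4, 44 and 57.7 CPM and 23.3, 32.4 and 72.6 CPM, above all, while Bhlhe40, a repressor of the clock, read 11.3 and 12.8 CPM against 47.5, 72 and 183 CPM and 33.4, 81.1 and 109 CPM, below all. Of 11 nuclear and small noncoding RNAs 1 stood higher and 4 lower, with Neat1, the scaffold of paraspeckles, at 221 and 182 CPM against 945, 1516 and 1882 CPM and 158, 429 and 701 CPM. Rpph1 and Rmrp, the RNAs of the RNase P and MRP enzymes, were 5.41-fold and 5.34-fold lower, and the log2 difference of Rpph1 was -3.05 without library 8 and -1.82 without library 10. Among hormone receptors and their chaperones 1 of 14 stood higher and 3 lower, Ptges3, a co-chaperone of the glucocorticoid receptor, at 218 and 265 CPM against 97.4 to 150.1 CPM, and Hsp90ab1, its HSP90, at 742 and 847 CPM against 976 to 2155 CPM.

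**Figure D5:**
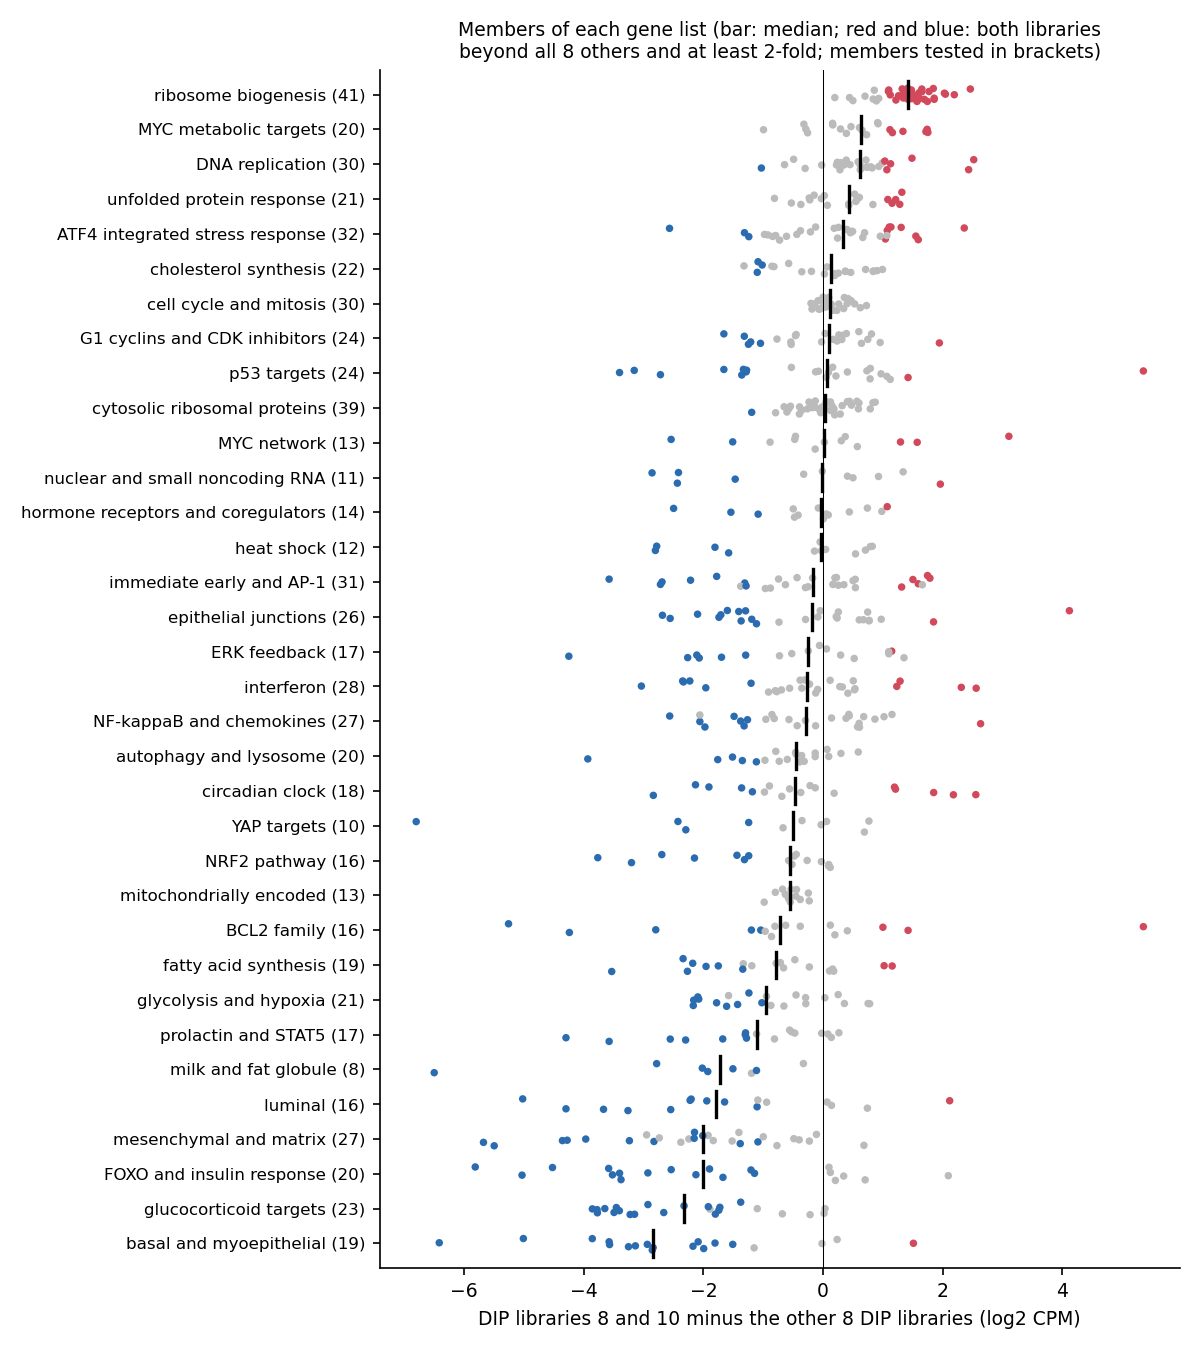
Log2 difference between libraries 8 and 10 and the other 8 DIP libraries (x axis) for every tested member of 34 gene lists (y axis); red and blue points are members that stood apart higher and lower, grey points the others, and the black bar is the list's median. The medians of ribosome biogenesis (1.41) and basal genes (-2.84) are far from that of all genes (-0.04), and that of cell cycle genes (0.11) is close to it.

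The 12 genes highest in the pair against the other 8, among genes with a name averaging a log2 CPM of 3 or more over the DIP libraries, were led by Myc. Apoe, a lipid carrier, read 83.1 and 82.7 CPM against 6.75, 10.3 and 17.9 CPM and 4.45, 6.44 and 7.96 CPM. Timm10, an import chaperone of mitochondria, read 61.8 and 86.1 CPM against 7.1, 10.4 and 19.7 CPM, and Naaa, a lysosomal amidase, 35.3 and 39.996 CPM against 3.97, 7.53 and 10.2 CPM. Several others act on RNA: Prpf3, of the spliceosome (6.54-fold), Smn1, which assembles spliceosome particles (6.17-fold), and Scnm1, of the minor spliceosome (5.59-fold). Nup210 of the nuclear pore (6.3-fold), Bpifc, a lipid-binding relative of bactericidal proteins (6.25-fold), Nr1d1, Mcm5 and Ccdc137 (5.67-fold) complete the set. Bpifc read 34.1 and 35.9 CPM in the pair and a median of 4.79 CPM in the other 8, but 24.8 CPM in library 1. All but Mcm5 were above all DOX libraries in both libraries of the pair.

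The 12 genes lowest in the pair were between 121-fold and 277-fold below the other 8, on the means of log2 CPM. The floor for naming genes is a mean over all DIP libraries, in which the other 8 outnumber the pair. It admits genes hardly read in the pair and can bar genes read only there, so these folds and those of the highest genes are not on equal terms. Mgp, an inhibitor of calcification, read 4.49 and 9.16 CPM against 575, 1292 and 3567 CPM in the other 8 and 6.21, 20.5 and 35.5 CPM in the DOX libraries. Ucma, a cartilage matrix protein, read 0.0683 and 0.166 CPM against 8.88, 41.1 and 114 CPM and 0.105, 0.327 and 0.475 CPM. Frzb, a secreted Wnt antagonist, read 0.116 and 0.16 CPM against 0.762, 48.5 and 99.4 CPM, and 1 of the other 8 thus came within a few-fold of the pair. Prune2 (241-fold), Hapln1, which links hyaluronan to proteoglycans (210.3-fold), Scrg1 (210.2-fold), Gjc3, a gap junction protein (199-fold), Ccl9, a chemokine (161-fold), Fabp4, a fatty acid carrier (146-fold), Capn6 (144-fold), Omd, a matrix proteoglycan (123-fold), and Cxcl17, a chemokine (121-fold), were the others. Leaving out 1 library of the pair moved 4 of these by over 1.5 times. On the log2 scale, without library 8 and without library 10 in that order, the difference was -6.96 and -8.47 for Hapln1, -6.62 and -8.82 for Scrg1, -6.40 and -8.26 for Ccl9 and -6.23 and -7.61 for Cxcl17. For Frzb it was -8.12 without library 1. By edgeR all 12 rose with DIP in the comparison by labels, with or without the pair, but Scrg1 did not pass the threshold by limma voom.

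Within the pair, the libraries differed most in short genes. Of 108 genes at least 2-fold apart between them, 97 were higher in library 10 and 82 of these lay in the shortest of 5 equal classes of summed exon length. The median difference, library 8 minus library 10, went from -0.37 in that class (median 944 bases) to 0.20 in the longest. The ribosomal proteins, which are short, read a mean log2 CPM of 8.82 in library 8 and 9.33 in library 10. Over 5 such classes of all tested genes with a known length, the median difference between the pair and the other 8 was 0.15 in the shortest class and -0.07 in the longest.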

How the data were processed

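Per the labels' protocols, ribosomal RNA was removed from total RNA and libraries were made with NEBNext Ultra II. The authors deposited 1 file of whole read counts for each library, over 56748 gene identifiers, with no normalisation seen in the files. The submitters' processing notes name fastp 0.23.2, featureCounts 2.0.1 and the build GRCm39; the aligner is not given in the sources used here, nor is the strand, so overlapping antisense genes cannot be told apart. Symbols came from GENCODE vM21, which named 52073 identifiers. Counts and reference are on different builds, so coordinates are given only for RefSeq windows on GRCm38.p6.

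Genes were kept by filterByExpr over the 20 HC11 libraries (23829 kept), scaled by TMM, and given as CPM and as log2 CPM with a prior count of 2. The comparison by labels used edgeR 4.0.16 under R 4.3.3 (glmQLFit robust, glmQLFTest, Benjamini-Hochberg adjustment) and was tested on simulated data with 200 changed genes. Simulated libraries were drawn independently, so that test does not cover any dependence between real libraries. The precision of single values is limited by depth: a count of 0, at 3 counts, allows 0.0190 to 0.0224 CPM in the pair, for counting error only. Of 763 listed names, 759 matched.

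The pair, the lists and the tests were chosen with earlier results of these data known. Named genes are the markers Myc, Ppp1r15a, Tsc22d3 and Krt5, the 12 largest differences in each direction at a mean log2 CPM of at least 3, up to 3 members per list at a mean log2 CPM of at least 2, and a set of defining genes; some genes that the rule names are not reported here. Alternatives were other scalings, filters, prior counts and thresholds and leaving out each library.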

Additional observations from a re-analysis of the deposited data

Results flagged for a closer look

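In 6 of 86 checks of a group of 10 libraries the lowest or highest library stood off from the rest by more than Dixon's limit, which chance reaches in about 1 of 20 groups. Only 1 of the 6 concerned the pair: library 10 had the lowest mean log2 CPM of the DIP libraries over the hormone receptor and coregulator list, at 5.005, with the next at 5.279. The other values lay elsewhere. Among DIP libraries, library 1 was lowest for the MYC network list, at 3.962, and library 2 lowest for the ATF4 stress response list, at 5.604. Among DOX libraries, library 5 was lowest for the cell cycle list, at 6.328, and library 4 highest for the mitochondrially encoded list, at 11.16, and for the percent of counts in mitochondrial genes, at 5.066. A pair of libraries that lie together cannot be found by this check, which compares 1 library with its nearest neighbour.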

How the results depend on the processing

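Limits: the pair is 2 libraries picked from their values, so no error or test stands behind any difference from the other 8, and p-values by labels treat libraries as independent. The filter needs reads in about as many libraries as the smallest group, so genes read only in the other 8 or only in the pair were not tested.

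Among genes averaging a log2 CPM of 2 or more, 1439 genes stood higher and 2227 lower. At a difference of at least 2 on the log2 scale the counts were 377 and 2103, with 84.8% lower. With DIP-high and DIP-low genes defined at 4-fold there were 626 and 597, with a median of 23.8% for the DIP-high, and with no filter that median was 30.6%. Without DIP library 1 it was 35.0%. Leaving out 1 library at a time gave 2729 to 3268 genes higher and 4375 to 4973 lower, 60.3% to 61.7% of them lower, 1410 to 1700 DIP-high and 1374 to 1553 DIP-low genes, medians of 35.0% to 46.4% and 96.2% to 102.5%, 43.0% to 50.03% not above the DOX range and 64.0% to 73.5% like the other 8. Leaving out library 8 or 10 alone gave 5988 to 6028 higher and 5195 to 5410 lower calls by labels. Scaling by library size alone gave 3172 higher and 4118 lower, and DESeq2 size factors 3140 and 4155. Scnm1 had a log2 fold change by labels of -0.00915 without libraries 8 and 10, against 0.94 with them. Over all settings, Myc stood 2.995 to 3.202 and Ppp1r15a 2.24 to 2.54 higher and Tsc22d3 between -3.46 and -2.99 and Krt5 between -3.25 and -2.62 on the log2 scale. Medians of the cell cycle, G1, MYC network, NF-kappaB, ribosomal protein, heat shock, hormone receptor, nuclear RNA and p53 lists changed sign under some setting. No paired analysis was possible because the labels give no replicate numbers.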

Other observations

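Gene names that share a stem, chosen after their values were seen, fell on different sides of the other 8. Those named here have some of the largest shares of all stems examined, to be read against 11.7% higher and 18.4% lower over all genes. Many stems lay nearer those shares, among them Ccdc, with 17 of 109 higher and 17 lower. Of 19 tRNA methyltransferase genes (Trmt) 12 stood higher in libraries 8 and 10, as did 11 of 20 nucleoporins (Nup), 11 of 28 RNA polymerase subunits (Polr), 12 of 31 Mediator subunits (Med) and 17 of 51 proteins of the large mitochondrial ribosomal subunit (Mrpl). Of 15 kallikreins (Klk) 13 stood lower, as did 21 of 32 keratins (Krt), 13 of 21 beta protocadherins (Pcdhb) and 21 of 34 collagens (Col). Over 20 chromosomes the median difference ran from -0.30 on chromosome X to 0.05 on chromosome 5.

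Other DIP libraries also lay in pairs that were each other's nearest, namely 3 and 5, 4 and 6, and 7 and 9, at root mean square log2 differences of 0.403, 0.408 and 0.419. Libraries 8 and 10 were 0.581 apart, and their next nearest library, library 1, was at 1.35 and 1.32. The chi-square per degree of freedom of counts was 134 between libraries 8 and 10, against 31.3 between 7 and 9. DOX libraries also held pairs that were each other's nearest, namely 4 and 6, 7 and 9, and 8 and 10, at 0.4655, 0.425 and 0.451. These are the same numbers as 3 of the DIP pairs, libraries 8 and 10 included, although the numbers follow deposit order and the labels do not say what equal numbers share. Xist read 160.3 and 201 CPM in DOX libraries 4 and 6, 97.0 and 80.4 in DIP libraries 4 and 6, 57.3 and 37.5 in DIP libraries 8 and 10, and at most 21.2 in the rest of the HC11 libraries.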
